A study of Mus musculus with 43 samples.

Results

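The estrogen receptors and a set of estrogen-responsive genes were followed through the Prmt1 knockout of the neonatal mouse testis. The set held 9 genes of the 55401 gene identifiers in the expression tables. They were matched by GENCODE vM21 symbol to the identifiers with the version ignored, and all 9 were found. Esr1 and Esr2 encode the nuclear estrogen receptors, Pgr and Greb1 are textbook targets of the activated receptor, Ltf and C3 are secreted proteins induced by estrogen in the rodent uterus, and Sprr2a2, Klk1 and Adm were added because they were seen to rise in the bulk RNA-seq of the knockout. The values of those last 3 genes in the bulk libraries were therefore chosen on that contrast and are given as a description with no test. The question behind the set was whether exposure to tamoxifen could shape the knockout testis.

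Polyadenylated mRNA of whole testis at P7 was sequenced in 3 WT and 3 Prmt1-dKO libraries, although the labels of these libraries also carry the cell type spermatogonia, and Smart-seq2 was made from sorted spermatogonia at P7 in 2 WT and 2 Prmt1-dKO libraries. Prmt1-dKO stands for Ddx4-CreERT2; Prmt1 lox/lox mice on the C57BL/6J background, in which the germ cell promoter of Ddx4 drives EGFP and CreERT2 and tamoxifen, injected on 3 consecutive days, removes exons 4 and 5 of Prmt1. CUT&Tag peak lists, 33 in all, came from WT testis cells at P7 and P14 and, for H4R3me2s alone, from Prmt1-dKO cells at P7. Their labels give the cell type as spermatogonia at P7 and spermatocyte at P14, although the sample titles name spermatogonia at both ages. The control libraries are labelled WT, whereas the sorting protocol names Prmt1 +/lox mice with the same Cre allele as controls; whether the bulk WT mice carried the Cre is not stated. The labels' protocol describes tamoxifen for WT and knockout samples alike, the treatment field names no drug, and no library is described as coming from an untreated animal. Whether each WT animal was injected is not stated sample by sample. The libraries therefore hold no labelled comparison with and without tamoxifen, and if any WT animals went without it, drug and deletion cannot be told apart. Library totals ran from 12396317 to 16598233 estimated counts in bulk and from 15610354 to 18547078 in Smart-seq2. Nothing in the labels ties a library to an animal, so the p-values measure the spread between libraries. Prmt1 itself, read over the whole gene and not over the deleted exons alone, stood at 234 ± 14.1 CPM (counts scaled to the library total; SD, n = 3) in WT and 167 ± 27.9 in Prmt1-dKO testis, with every Prmt1-dKO library below every WT library. In sorted spermatogonia it stood at 183 ± 47.5 CPM (SD, n = 2) in WT and 99.5 ± 18.3 in Prmt1-dKO, again without overlap.

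An estrogen receptor is a transcription factor that binds its hormone, pairs up, and attaches to DNA at estrogen response elements, where coactivators or corepressors decide what happens to the nearby gene. Tamoxifen is converted in the liver to a compound that occupies the same pocket. It blocks the receptor in the breast and acts as a partial agonist in the uterus. CreERT2 uses a mutated ligand-binding domain of the human receptor, which is how tamoxifen switches the recombinase on. In the testis Esr1 is known from Leydig cells, peritubular cells and the efferent ducts, and Esr2 from germ cells and Sertoli cells.

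The levels of the 9 genes in WT whole testis differed widely. In TPM, which scales by transcript length as well as library total so that genes can be compared, Greb1 was highest at 28.7 ± 8.56 (SD, n = 3) and Esr1 followed at 6.59 ± 0.352. C3 at 2.82 ± 0.940, Adm at 2.32 ± 0.0850 and Esr2 at 2.05 ± 0.297 TPM lay within each other's spread. Pgr stood at 0.663 ± 0.0702 TPM, and Klk1 at 0.267 ± 0.299 and Sprr2a2 at 0.0800 ± 0.106 could not be ordered. Ltf rested on 2 to 4 counts a library, and its 3 WT values of 0.82, 7.71 and 0.31 TPM give it no place in that order. In Prmt1-dKO testis the order was different, with Sprr2a2 at 49.9 ± 52.7, Greb1 at 29.7 ± 11.1, Adm at 22.4 ± 2.78, Klk1 at 16.3 ± 15.4 and C3 at 13.5 ± 6.80 TPM; only the place of Adm among them was narrow across libraries. Below them lay Esr1 at 4.73 ± 0.994, Pgr at 1.85 ± 0.371 and Esr2 at 1.72 ± 0.630 TPM, and the last 2 overlapped.

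**Figure D1:**
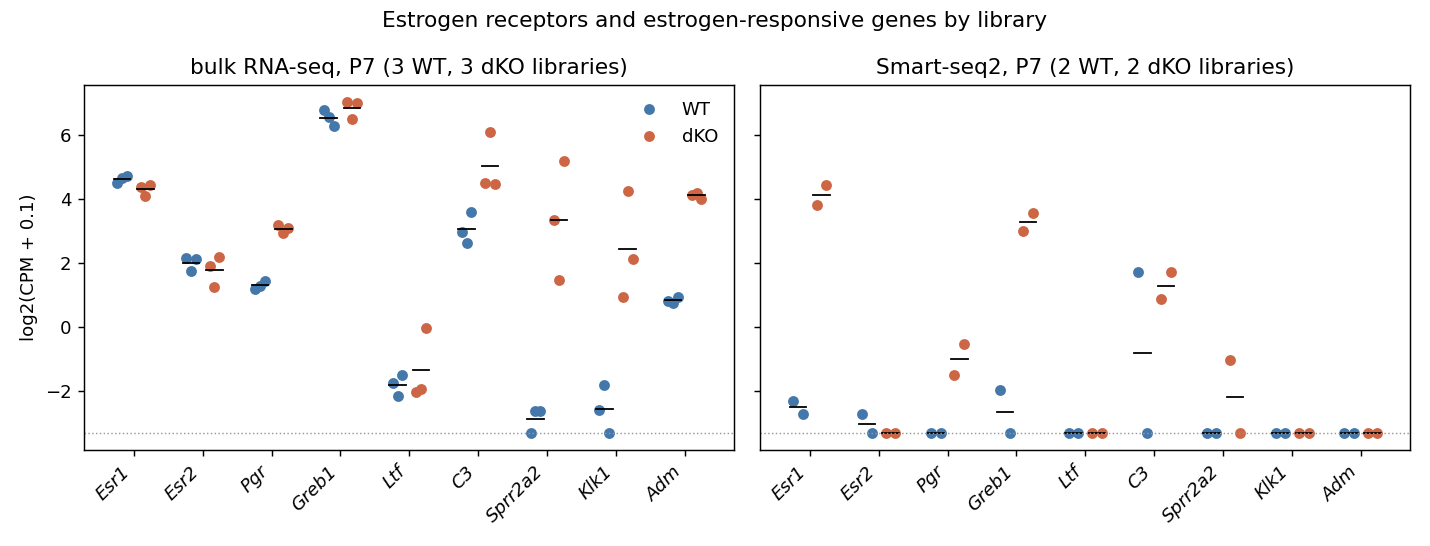
Each point is 1 library, placed by log2(CPM + 0.1) on the vertical axis; blue is WT, orange is Prmt1-dKO, black bars are group means and the dotted line is a value of 0. In bulk RNA-seq (left) Pgr, C3, Sprr2a2, Klk1 and Adm lie higher in all 3 Prmt1-dKO libraries, whereas in Smart-seq2 (right) Esr1, Greb1 and Pgr do so and Klk1, Adm and Ltf are at 0 in all 4 libraries.

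Neither receptor passed the test in whole testis, where fewer cells of a type and less RNA per cell cannot be told apart. Esr1 (ENSMUSG00000019768.16, chr10:4611593-5005614, GRCm38) had 341, 409 and 423 counts in WT against 286, 213 and 344 in Prmt1-dKO. Scaled to library size, 16.96 to 21.8 CPM in Prmt1-dKO lay below 22.8 to 26.6 CPM in WT, a log2 fold change of -0.32 ± 0.14 (SE) with an edgeR adjusted p of 0.141. Markers of Leydig and peritubular cells, known sites of Esr1, were lower in the same libraries, and those of efferent duct, rete and epididymal epithelium, another site, summed higher (86.2 to 106 CPM in WT against 119 to 232). Of 8 tested Leydig markers 5 were called lower and 0 higher, with their median at -2.13 (log2) and sums of 528 to 640 CPM in WT against 264 to 276 in Prmt1-dKO. Of 7 tested peritubular myoid markers 4 were called lower, Acta2, Myh11, Cnn1 and Actg2, and 0 higher. The list had its median at -1.09 (log2) and summed to 1351 to 1523 CPM in WT against 536 to 1122 in Prmt1-dKO, and leaving out single libraries ended the calls of all 4 except Myh11. Of 9 tested Sertoli cell markers 9 had a negative log2 fold change, with a median of -0.53, and 1, Amh, was called lower. The part of these cells in the receptor values was not tested. Esr2 (ENSMUSG00000021055.14, chr12:76120419-76177259) had 65, 53 and 68 counts in WT against 50, 29 and 70 in Prmt1-dKO. Its groups overlapped, with a log2 fold change of -0.18 ± 0.28 and an adjusted p of 0.695, and Prmt1-dKO replicate 2 held the lowest value of all 6 libraries for both receptors. Greb1 (ENSMUSG00000036523.16, chr12:16670615-16800886), which encodes a chromatin cofactor of the receptor as well as being its target, also overlapped between genotypes, at 94.9 ± 16.6 CPM in WT against 118 ± 23.4 in Prmt1-dKO. The log2 fold change was 0.31 ± 0.18 with an adjusted p of 0.255.

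Pgr, the nuclear progesterone receptor and the member most often used as a readout of estrogen receptor activity, rose in the Prmt1-dKO testis. Pgr (ENSMUSG00000031870.16, chr9:8899833-8968611) had 33, 38 and 42 counts in WT against 123, 96 and 133 in Prmt1-dKO. All 3 Prmt1-dKO values lay above all WT values and close to each other, at 8.35 ± 0.669 CPM against 2.39 ± 0.223 CPM (SD, n = 3 each). The log2 fold change was 1.80 ± 0.20 and the edgeR adjusted p 0.00133. C3 (ENSMUSG00000024164.15, chr17:57203970-57228136), the central component of complement, also rose. It had 116, 99 and 190 counts in WT against 313, 857 and 353 in Prmt1-dKO, so that no libraries overlapped but Prmt1-dKO replicate 2 alone held more than the other two Prmt1-dKO libraries together. The log2 fold change of 2.13 ± 0.45 had an adjusted p of 0.0128, and it was 1.40 without Prmt1-dKO replicate 2. Without WT replicate 1 or WT replicate 2 the adjusted p of C3 was 0.0538 and 0.0566, so the call rests on the full set of libraries. Ltf (ENSMUSG00000032496.7, chr9:111019271-111042767), the iron-binding lactoferrin of secretions and neutrophil granules, had 3, 2 and 4 counts in WT against 2, 2 and 14 in Prmt1-dKO and was too low to be tested.

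Among the 6 members that were not picked by their bulk values, 5 could be tested. A gene was called when its adjusted p was under 0.05 and its change at least 2-fold. By that rule 2 of the 5 were called higher and 0 were called lower, where 5.32% of all 16554 genes tested were called higher and 1.78% lower. The 3 that were not called, Esr1, Esr2 and Greb1, had unadjusted p-values of 0.0466, 0.541 and 0.113. Prmt1-dKO libraries lay wholly above the WT libraries for Pgr and C3 and wholly below for Esr1, patterns shown by 20.9% and 19.9% of all genes. The members were proposed with results of these data known, so these shares describe them and no more.

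Of the genes picked for their rise, Adm was the steadiest. Adm (ENSMUSG00000030790.15, chr7:110627661-110629820) encodes adrenomedullin, a vasodilating peptide that is released by endothelium, smooth muscle and epithelium. It had 25, 26 and 29 counts in WT against 241, 231 and 253 in Prmt1-dKO. On the CPM scale this was 1.70 ± 0.116 against 17.3 ± 1.19 (SD, n = 3 each), and the ratio of the summed counts was 10.2, with a 95% counting interval of 8.07 to 12.98. Sprr2a2 and Klk1 were far more uneven. Sprr2a2 (ENSMUSG00000068893.5, chr3:92215920-92256724), one of the small proline-rich proteins of the cornified envelope of epithelia, had 0, 1 and 1 counts in WT against 140, 34 and 579 in Prmt1-dKO. Klk1 (ENSMUSG00000063903.5, chr7:44225360-44229618), the tissue kallikrein that releases kinins, had 1, 3 and 0 counts in WT against 25, 237 and 68 in Prmt1-dKO. The 2 genes were at their highest in different libraries, Sprr2a2 in Prmt1-dKO replicate 3 and Klk1 in Prmt1-dKO replicate 2, and Sprr2a2 was at its lowest where Klk1 was at its highest. With so few counts in WT, the ratio of summed counts was 423 for Sprr2a2, with an interval from 117 to 3497, and 92.6 for Klk1, with an interval from 35.8 to 342. Such intervals cover counting error only.

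The Sprr2a genes are printed here because their sequence decides how far the Sprr2a2 value can be read. Of the 2783 different windows of 100 bases in the annotated Sprr2a2 transcripts, 92.8% also occur in transcripts of Sprr2a1 or Sprr2a3. The 249 coding bases of Sprr2a2 (chr3:92253905-92254153, plus strand) and Sprr2a1 (chr3:92219092-92219340, plus strand) differ at 0 positions, and those of Sprr2a3 (chr3:92288588-92288836, plus strand) differ at 3. Counted from 1 at the first base of the start codon, with the Sprr2a2 base first, these are G63A, G159T and A192T, and they are in capitals. Sequences were read from the GRCm38 genome.
Sprr2a2 and Sprr2a1: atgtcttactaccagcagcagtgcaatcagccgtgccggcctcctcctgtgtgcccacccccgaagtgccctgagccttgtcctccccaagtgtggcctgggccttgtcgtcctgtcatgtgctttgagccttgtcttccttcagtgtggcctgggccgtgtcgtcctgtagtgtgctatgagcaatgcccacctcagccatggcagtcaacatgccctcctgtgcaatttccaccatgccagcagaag
Sprr2a3: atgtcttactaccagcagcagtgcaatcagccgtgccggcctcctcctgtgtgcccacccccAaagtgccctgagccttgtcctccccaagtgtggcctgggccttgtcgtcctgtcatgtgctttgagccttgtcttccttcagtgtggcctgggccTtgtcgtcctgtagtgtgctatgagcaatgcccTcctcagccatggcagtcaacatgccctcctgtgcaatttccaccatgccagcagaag
The Sprr2a2 gene model also begins inside the Sprr2a1 model. RSEM divided reads between these copies by estimation, which gave Sprr2a1 0, 0 and 0 counts in WT and 2.40, 0 and 16.9 in Prmt1-dKO, and Sprr2a3 7.04 counts in Prmt1-dKO replicate 3 and 0 in the other libraries. The counts are therefore best read as those of the Sprr2a1 and Sprr2a2 pair. The remaining 9 genes of the Sprr2 family had 0 counts in all 6 bulk libraries. Klk1 is better separated, since 5.09% of its windows occur in Klk1b11 or Klk1b5, which had 3 and 0 counts over the bulk libraries. Other kallikreins of its cluster were at 0 in WT and present in Prmt1-dKO, with 2, 29 and 12 counts of Klk1b27, 6, 5 and 7 counts of Klk1b21 and 3, 12 and 2 counts of Klk1b24. Klk1b27 and Klk1b24 shared with Klk1 their highest value in Prmt1-dKO replicate 2. For the other 7 members no window of 100 bases occurs in another gene.

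The upstream regions of the genes that stood higher in Prmt1-dKO testis were searched for the letters of the estrogen response element. RefSeq promoters (GRCm38.p6), from 250 bases before to 50 bases after the start of transcription, were found for all 9 members. The full palindrome GGTCANNNTGACC, searched on both strands, was in the promoter of 0 of the 9 members and in 18 of 27025 promoters (0.067%). Within 3000 bases on each side of the start it was likewise near 0 of the 9 members, against 0.722% of all starts. A single arm, GGTCA on either strand, occurred in 40.2% of all promoters. It is in capitals in the printed promoters, with 0 matches for Pgr, 2 for C3, 3 for Klk1, 1 for Adm and 0 for Sprr2a2, whose 300 bases are the same as those of Sprr2a1.
Pgr, chr9:8899583-8899882, plus strand: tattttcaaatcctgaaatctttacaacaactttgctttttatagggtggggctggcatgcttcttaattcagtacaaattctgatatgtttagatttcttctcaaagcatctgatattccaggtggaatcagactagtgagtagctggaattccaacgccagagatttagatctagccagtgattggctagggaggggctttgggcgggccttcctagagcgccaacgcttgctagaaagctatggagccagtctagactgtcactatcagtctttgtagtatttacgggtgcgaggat
C3, chr17:57228087-57228386, minus strand: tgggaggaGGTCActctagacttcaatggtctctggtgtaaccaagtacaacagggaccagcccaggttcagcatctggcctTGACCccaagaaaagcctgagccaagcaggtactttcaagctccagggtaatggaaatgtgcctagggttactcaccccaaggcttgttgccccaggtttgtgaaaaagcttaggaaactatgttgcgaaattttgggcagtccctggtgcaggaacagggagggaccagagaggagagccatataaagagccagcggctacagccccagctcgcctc
Klk1, chr7:44225110-44225409, plus strand: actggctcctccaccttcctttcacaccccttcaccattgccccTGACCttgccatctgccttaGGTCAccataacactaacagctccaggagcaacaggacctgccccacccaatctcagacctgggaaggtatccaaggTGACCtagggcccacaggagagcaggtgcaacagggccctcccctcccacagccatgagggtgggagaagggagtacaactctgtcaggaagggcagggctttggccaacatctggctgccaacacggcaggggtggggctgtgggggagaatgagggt
Adm, chr7:110627407-110627706, plus strand: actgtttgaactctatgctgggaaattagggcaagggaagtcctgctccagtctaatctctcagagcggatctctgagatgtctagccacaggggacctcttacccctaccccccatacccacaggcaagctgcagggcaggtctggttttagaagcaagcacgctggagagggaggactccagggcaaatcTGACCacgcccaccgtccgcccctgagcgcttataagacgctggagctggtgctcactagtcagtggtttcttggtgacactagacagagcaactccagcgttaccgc
Sprr2a2, chr3:92250397-92250696, plus strand: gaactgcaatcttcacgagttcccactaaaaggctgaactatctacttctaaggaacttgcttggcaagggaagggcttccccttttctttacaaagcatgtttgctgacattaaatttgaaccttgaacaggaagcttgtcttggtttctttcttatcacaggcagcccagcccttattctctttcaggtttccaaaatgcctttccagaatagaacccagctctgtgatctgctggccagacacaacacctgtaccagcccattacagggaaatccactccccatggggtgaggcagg
A match describes letters only, and the absence of one says only that they are not in this window.

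The genes whose profile over the 6 bulk libraries lay closest to a member were ranked by the root mean square difference of log2 CPM, each gene centred on its own mean, among 16539 genes. For Esr1 they were Mfap1a, Hsd17b12, Vxn, Rmdn2 and Lrrc47, with differences from 0.031 to 0.044. Those of Esr2 were Gm10052, Plppr5, Cyp1b1, Slc25a53 and Arl15, at 0.085 to 0.120. Klk1 was followed by Aqp8, Nkx6-1, Gm38252, Ccr9 and Gm12388, at 0.571 to 0.668. Aqp8, a water channel, had 0 counts in WT and 16, 97 and 19 in Prmt1-dKO. Sprr2a2 was followed by Apoc2, Apoa1, Tm4sf4, Vmn2r76 and Vmn2r113, at 1.025 to 1.312. Apoc2, an apolipoprotein, had 2, 4 and 4 counts in WT against 64, 17 and 255 in Prmt1-dKO. The genes nearest Adm, Gm5766, Gm4968, Gm15963, Gm10441 and D630023O14Rik, at 0.095 to 0.174, were at 0 counts in WT and between 13 and 23 in Prmt1-dKO, a likeness of log2 values that rests on few reads.

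The Prmt1-dKO libraries thus carried different sets of high genes, and some markers of other cell types moved with them. In Prmt1-dKO replicate 2, where Klk1 and C3 were highest, the basal keratins Krt5 and Krt14, chosen after their values were seen, had 54 and 109 counts, against 0 and 4 in Prmt1-dKO replicate 1 and 10 and 22 in Prmt1-dKO replicate 3. Lcn2, a secreted epithelial and neutrophil protein induced in inflammation, had 254 counts there against 36 and 83. In Prmt1-dKO replicate 3, where Sprr2a2 and Ltf were highest, Apoa1 had 1052 counts against 318 and 9, and the neutrophil gene S100a8 had 84 against 25 and 26. The 7 red blood cell markers summed to 2394 CPM in Prmt1-dKO replicate 2 against 692 to 1047 in the other libraries, with 0 of 6 tested called. The 8 hepatocyte markers, Apoa1 among them, summed to 95.4 CPM in Prmt1-dKO replicate 3 against 41.2 and 47.4 in the other Prmt1-dKO libraries and 25.6 to 33.5 in WT, with Ttr at 0 throughout. Apoa1 alone held 66.7 of the 95.4 CPM, and 23.2 of the 47.4 CPM in Prmt1-dKO replicate 1. The higher sum in Prmt1-dKO replicate 3 thus rests on this gene and not on the list as a whole. Of 14 tested markers of efferent duct, rete and epididymal epithelium, 3 were called higher, Krt18, Aqp1 and Krt8, and 2 lower, Crisp1 among them. Lcn5 and Lcn8 of that list were at 0 in all 6 libraries, whereas Crisp1 had 54, 34 and 112 counts in WT against 6, 10 and 6 in Prmt1-dKO. Of 3 tested squamous markers Trp63 was called higher, and the list summed to 20.9 to 24.7 CPM in WT against 24.3 to 51.4 in Prmt1-dKO, with Krt6a and Sprr1b at 0 throughout. Of 5 tested neutrophil markers 3 were called higher, S100a8, S100a9 and Csf3r, with sums of 8.23 to 9.07 CPM in WT against 15.03 to 22.4 in Prmt1-dKO. Without WT replicate 1 the calls of Krt8, Trp63, S100a9 and Csf3r were lost, with adjusted p-values from 0.0503 to 0.129, and DESeq2 did not call Csf3r. The part of these cells in the values of C3, Klk1, Sprr2a2 and Ltf was not tested.

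**Figure D2:**
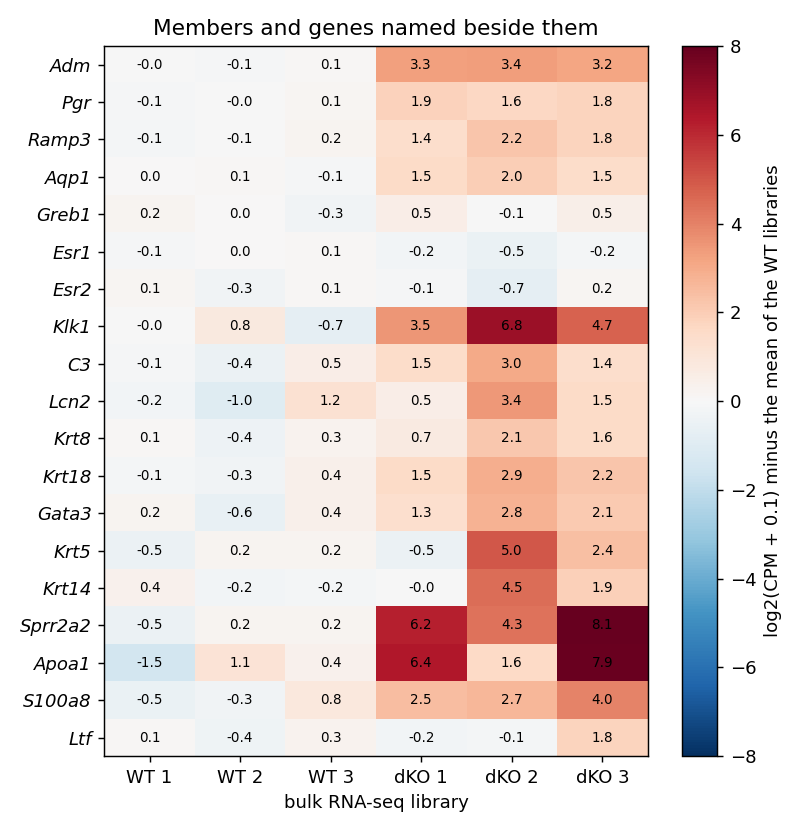
Colour and number give log2(CPM + 0.1) of each bulk library minus the mean of the 3 WT libraries, for the members and for genes named beside them (rows). Adm, Pgr, Ramp3 and Aqp1 are raised to a like degree in all Prmt1-dKO libraries, Klk1, C3, Lcn2, Krt5 and Krt14 most in Prmt1-dKO replicate 2, and Sprr2a2, Apoa1, S100a8 and Ltf most in Prmt1-dKO replicate 3.

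Most other genes of estrogen signalling did not pass the test in whole testis. The list of receptors, related receptors and cofactors held 14 genes beside the members, all tested. Its median log2 fold change was -0.05, against 0.02 over all genes, and 1 was called higher and 0 lower. That gene was Gata3, a zinc finger transcription factor that works beside the receptor in mammary epithelium, with 17, 10 and 21 counts in WT against 36, 90 and 72 in Prmt1-dKO (log2 fold change 2.22 ± 0.44, adjusted p 0.00958). The other receptors of estrogen and its relatives, Gper1, Esrra, Esrrb and Esrrg, had log2 fold changes from -0.32 to 0.48, with adjusted p-values from 0.314 to 0.943. Of the coactivators, Ncoa2 at -0.73 had an adjusted p of 0.0373 with a change under 2-fold.

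Among 32 further genes known to respond to estrogen in other tissues, 28 were tested, 1 was called higher and 1 lower, and the median log2 fold change was 0.19. Ramp3, the receptor partner that turns the calcitonin receptor-like receptor into a receptor for adrenomedullin, had 48, 55 and 64 counts in WT against 130, 210 and 196 in Prmt1-dKO. It rose with a log2 fold change of 1.86 ± 0.24 and an adjusted p of 0.00207. Mybl1, a transcription factor of male germ cells, fell from 360, 356 and 295 counts to 142, 94 and 175, a log2 fold change of -1.15 ± 0.18 with an adjusted p of 0.00396. Without Prmt1-dKO replicate 2 the change of Mybl1 was just under 2-fold (adjusted p 0.000226), which ended the call. Vegfa, at 0.71 ± 0.14 with an adjusted p of 0.00815, stayed under 2-fold. The usual readouts Myc, Ccnd1, Igf1 and Wnt4 had adjusted p-values from 0.0635 to 0.111, and Tff1, Areg, Pdzk1 and Agr2 were too low to be tested. Of the rest of the adrenomedullin pathway edgeR tested 5 genes and called Ramp3. DESeq2 also called Calca, which encodes calcitonin and a related neuropeptide, at 0, 2 and 1 counts in WT against 12, 4 and 51 in Prmt1-dKO. The receptor Calcrl had 173, 179 and 162 counts in WT against 137, 110 and 146 in Prmt1-dKO.

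The genes called among those that make estrogen and its precursors were lower. Aromatase, Cyp19a1, had 3, 1 and 0 counts in WT against 3, 1 and 6 in Prmt1-dKO and was not tested. Of the 11 genes of estrogen synthesis and clearance found by symbol among 13 listed, 6 were tested, 0 were called higher and 1 was called lower. That gene was Hsd17b1, which reduces estrone to estradiol, with 1325, 1050 and 1238 counts in WT against 511, 408 and 673 in Prmt1-dKO (log2 fold change -1.04 ± 0.15, adjusted p 0.00309). That change lies at the edge of 2-fold, and the call of Hsd17b1 was lost without WT replicate 1 or without Prmt1-dKO replicate 2, at a log2 fold change of -0.94 in both cases (adjusted p 0.0207 and 9.56e-05). Hsd17b7 had a log2 fold change of -0.93 ± 0.16 and an adjusted p of 0.00521, under 2-fold. Leydig cells make the androgen that aromatase uses. Of 9 tested genes of Leydig steroidogenesis 5 were called lower and 0 were called higher, and the list's median was -1.92. This list holds all the Leydig markers given above, so these 5 genes are the same as the 5 markers called lower there. Cyp17a1, the enzyme that commits steroids to androgens, went from 1295, 1031 and 1237 counts to 36, 42 and 22, and Cyp11a1, Insl3 and Ren1 fell by 2.34, 4.66 and 5.60 on the log2 scale. Lhcgr, the luteinizing hormone receptor of these cells, went the other way, with 249, 191 and 269 counts in WT against 360, 272 and 396 in Prmt1-dKO (log2 fold change 0.69 ± 0.17, adjusted p 0.0223), under 2-fold. Part of C3's own list moved with it. Of 7 tested acute-phase genes apart from the members, the complement genes Cfb and C4b were called higher and 0 were called lower, at log2 fold changes of 1.38 ± 0.29 and 1.82 ± 0.40. As for C3, both calls were lost without WT replicate 1 or WT replicate 2, with adjusted p-values from 0.0567 to 0.0688.

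**Figure D3:**
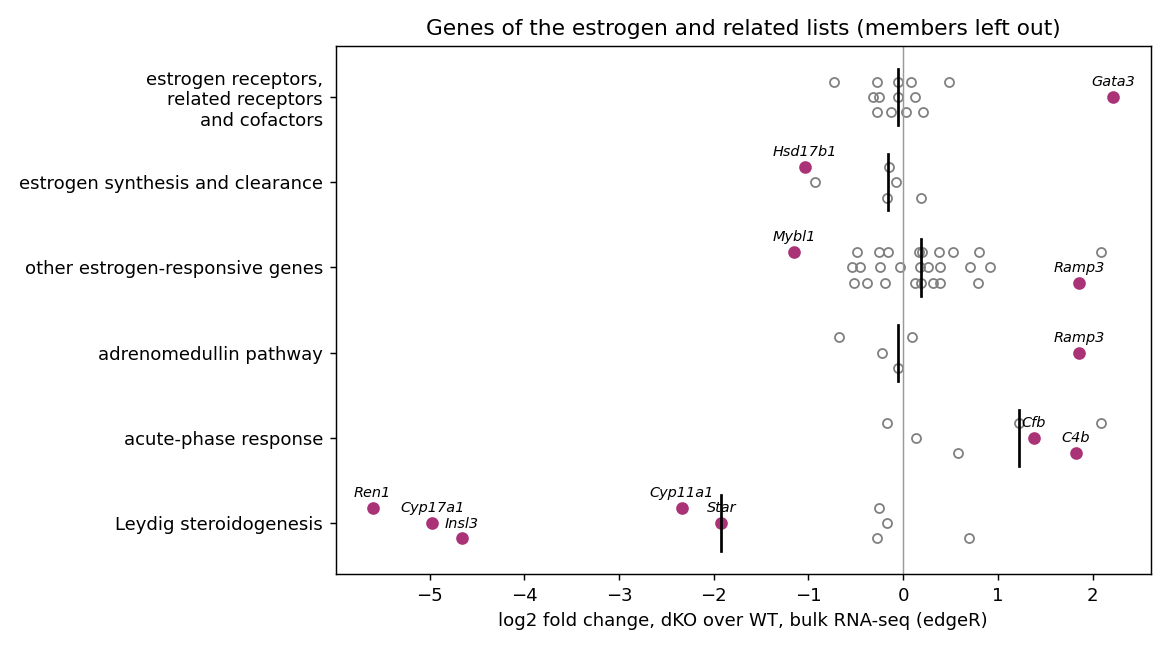
Each point is 1 tested gene other than the 9 members, placed by its log2 fold change (Prmt1-dKO over WT, bulk RNA-seq) on the horizontal axis and by list on the vertical axis; filled and named points were called, open points were not, and black bars are list medians. The 3 estrogen lists have medians between -0.16 and 0.19 with 2 genes called in each direction (Ramp3 is also in the adrenomedullin list), and the Leydig list has a median of -1.92 with 5 genes called lower.

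In sorted spermatogonia Esr1, Greb1 and Pgr lay higher in both Prmt1-dKO libraries than in both WT libraries, and Pgr rested on a few counts. Of the members 3, Esr1, Greb1 and C3, were high enough to be tested. Esr1 had 2 and 1 counts in WT against 219 and 326 in Prmt1-dKO. Greb1 had 3 and 0 counts in WT against 124 and 180 in Prmt1-dKO. Both were near 0 in both WT libraries and present in both Prmt1-dKO libraries, and the ratios of summed counts were 228 for Esr1, with a counting interval from 77.6 to 1109, and 127 for Greb1, with an interval from 43.1 to 620. In TPM, Esr1 in the Prmt1-dKO spermatogonia, at 5.32 and 8.99, was near the 6.59 of whole WT testis, in tables scaled separately. C3 had 62 and 0 counts in WT against 27 and 48 in Prmt1-dKO, which overlap.

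The test depended on the tool. With edgeR, Esr1 had a log2 fold change of 7.71 ± 1.18 and an adjusted p of 0.0774, Greb1 6.87 ± 1.94 and 0.115, and C3 0.61 ± 2.19 and 0.919, so that 0 of the 3 were called, as were 0% of 16443 genes in either direction. At an unadjusted p under 0.05 edgeR held 2 of the 3, Esr1 and Greb1, among 2702 genes higher and 1209 lower. With DESeq2 the adjusted p was 8.9e-09 for Esr1, 0.000206 for Greb1 and 0.931 for C3, so that 2 of the 3 were called higher and 0 lower, where DESeq2 called 7.33% of genes higher and 3.93% lower. Esr1 and Greb1 were high enough to be tested only through their Prmt1-dKO counts, so any call of them could only be higher. Prmt1-dKO libraries lay wholly above the WT libraries in 36.3% of the tested genes and wholly below in 20.3%. Of 16443 genes, 123 (0.75%) had at most 3 counts over both WT libraries and at least 100 in each Prmt1-dKO library, as Esr1 and Greb1 did, and 5 showed the reverse. These cut-offs fit the counts of Esr1 and Greb1 themselves, so the share is a description only. Pgr, too low to be tested, had 0 counts in both WT libraries and 4 and 9 in Prmt1-dKO, at least 5.44-fold higher against a floor of 3 counts over the WT pair. Sprr2a2 had 6 counts in Prmt1-dKO replicate 1 alone, and Esr2 had 1 count in WT replicate 1 alone. Klk1, Adm and Ltf had 0 counts in all 4 libraries, where a count of 0 allows up to 3.

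The higher values of Esr1 and Greb1 in these libraries came together with other genes that were at 0 in WT. All 10 macrophage markers had 0 counts in both WT libraries, and 8 of them were present in Prmt1-dKO, with a summed level of 59.8 to 70.7 CPM; Adgre1 and Cd163 remained at 0. The 10 Sertoli cell markers summed to 369 to 381 CPM in WT against 628 to 788 in Prmt1-dKO, and the 8 Leydig markers to 0.366 to 8.85 and 12.6 to 15.2 CPM, with Cyp11a1, Cyp17a1, Lhcgr and Ren1 at 0 in all 4 libraries. The 12 germ cell markers were high throughout, at 2665 to 2678 CPM in WT against 2495 to 2603 in Prmt1-dKO. Immediate early genes, which many stimuli induce within minutes, were higher in both Prmt1-dKO libraries for 15 of 15 genes, with sums of 116 to 167 CPM in WT against 620 to 667 in Prmt1-dKO. The WT libraries also held fewer genes with a count, 17106 and 15587 against 21404 and 20194. The part of these differences in the Esr1 and Greb1 values was not tested. CreERT2 carries a human receptor domain for which the tables have no row, and its part in the Esr1 counts was not tested.

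**Figure D4:**
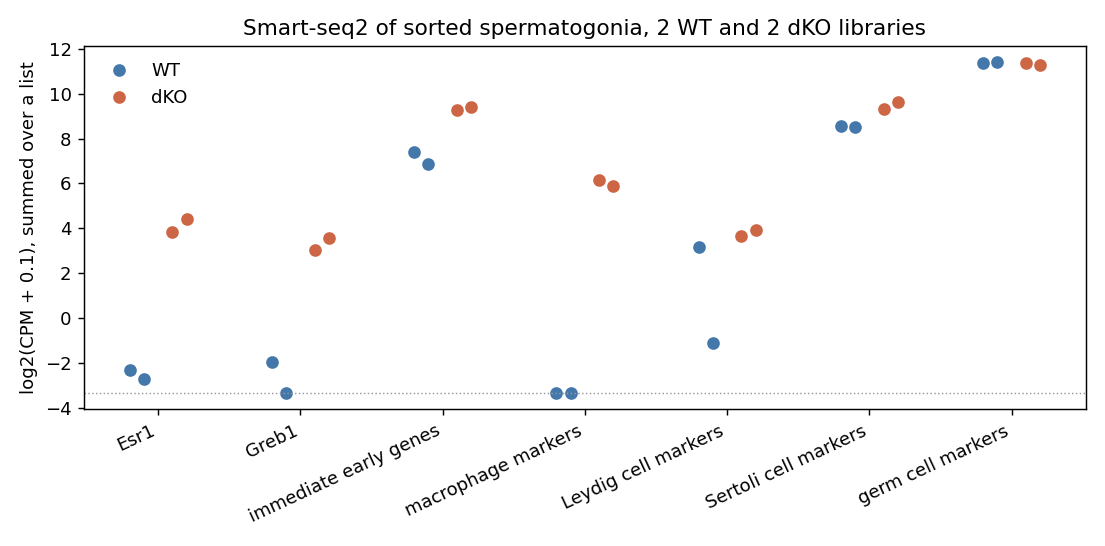
Each point is 1 Smart-seq2 library, placed by log2(CPM + 0.1) of Esr1, of Greb1 or of the sum over a list; blue is WT, orange is Prmt1-dKO and the dotted line is a value of 0. Esr1, Greb1, the immediate early genes, the macrophage markers and the Sertoli cell markers lie higher in both Prmt1-dKO libraries, and the germ cell markers lie within 2495 to 2678 CPM in all 4.

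Esr1 thus stood below the WT libraries in all 3 Prmt1-dKO whole testes and above them in both Prmt1-dKO spermatogonia libraries, and the difference between the assays was not tested. Of 39 tested genes in the 3 estrogen lists apart from the members, 0 were called by edgeR in Smart-seq2, and DESeq2 called 6 higher and 1 lower. The 6 were Hsd17b1, Rasd1, Stc2, Hspb1, Fos and Cyp26a1, of which 4, Hsd17b1, Rasd1, Stc2 and Cyp26a1, were at 0 in WT. The gene called lower was Mybl1, with 459 and 739 counts in WT against 64 and 75 in Prmt1-dKO. Pgr, Gata3, C3, Klk1 and Adm, which stood higher in whole testis, each had at most 48 counts in every Prmt1-dKO spermatogonia library. Ramp3 had 228 and 442 counts in WT against 355 and 197 in Prmt1-dKO spermatogonia, which overlap.

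Peaks of chromatin marks at the members were read from the CUT&Tag lists, which were called per sample. A member was counted as marked when a peak summit lay within 3000 bp of one of its annotated starts. H3K4me3, the mark of active and poised promoters, split the set. Esr1, Esr2, Pgr and Greb1 had such a peak in 4 of 4 WT lists at P7 and P14, Adm in 3 of 4, and Ltf, C3, Sprr2a2 and Klk1 in 0 of 4, where 61.8% to 65.7% of protein-coding genes had one in a given list and 59.3% in all 4. At P7 Greb1 had the strongest, with a fold enrichment of 6.92 at chr12:16799947-16800731 in the first list, and Esr1 reached 6.11 at chr10:4612289-4612974. At Pgr the peak at chr9:8900264-8900745 had a fold enrichment of 4.59, and at Esr2 that at chr12:76177002-76177889 reached 4.80. Adm had a low one in the first P7 list, 2.96 at chr7:110628768-110629007.

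**Figure D5:**
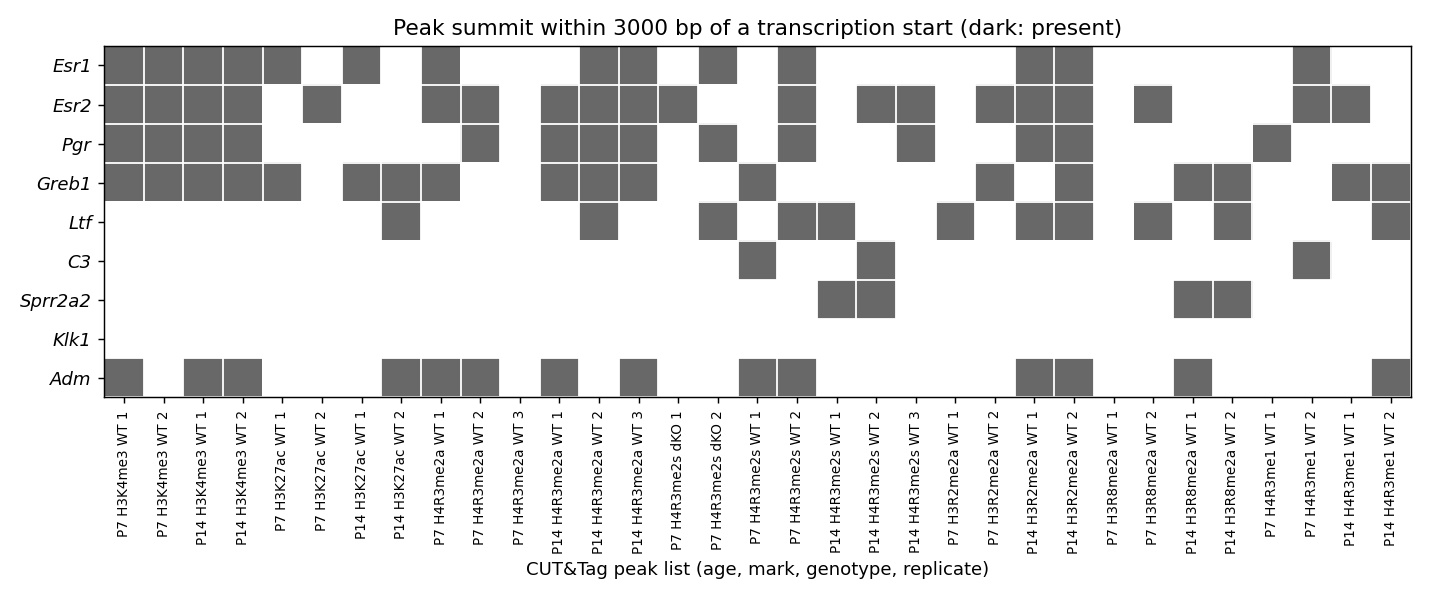
Rows are the 9 members and columns the 33 CUT&Tag lists, ordered by mark; a dark cell marks a peak summit within 3000 bp of a start. H3K4me3 fills the rows of Esr1, Esr2, Pgr and Greb1, H3R2me2a at P14 those of Esr1, Esr2, Pgr, Ltf and Adm, and the Klk1 row is empty in all lists.

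H3K27ac, which accompanies active promoters and enhancers, marked 2 members, Esr1 and Greb1, in the first P7 list and 1, Esr2, in the second, where 37.9% to 40.9% of protein-coding genes had a peak in a given list. At P14 it marked Esr1 and Greb1 in one list and Greb1, Ltf and Adm in the other, against 55.3% to 56.2% of genes. The members marked in both lists were thus 0 at P7 and 1 at P14, where 31.0% and 48.9% of genes were. The asymmetric dimethylation H4R3me2a, a product of Prmt1, was found at 4, 3 and 0 of the 9 members in the 3 P7 lists, against 19.0% to 20.3% of genes in a given list. At P14 it was at 4, 5 and 5 members, against 44.9% to 51.1% of genes. All 3 P14 lists shared Esr2, Pgr and Greb1 where 29.7% of genes were shared, and all 3 P7 lists shared 0 members where 4.3% of genes were shared. For H4R3me2s, the symmetric form, the 2 WT lists at P7 held 3 and 5 members and shared Adm, and the 2 Prmt1-dKO lists held 1 and 3 and shared 0. Over all protein-coding genes, 33.1% to 33.7% were marked in a WT list and 23.1% to 27.5% in a Prmt1-dKO list, and 17.8% and 9.8% were marked in both. The asymmetric mark H3R2me2a was at 1 and 2 members in the P7 lists, against 24.1% to 24.3% of genes. At P14 it was at 5 and 6 members, against 58.3% to 61.5% of genes. Both P14 lists shared Esr1, Esr2, Pgr, Ltf and Adm where 51.3% of genes were shared. H3R8me2a and H4R3me1, the mono-methyl form, marked 0 to 3 members in a given list. For these marks 21.1% to 25.3% of genes had a peak in a P7 list and 40.9% to 45.4% in a P14 list. Both P14 lists shared Greb1 and Sprr2a2 for H3R8me2a, where 33% of genes were shared, and Greb1 for H4R3me1, where 29.9% were. The 3 H4R3me2s lists labelled P14 carry another code inside their peak names, so that their age rests on the labels alone. Esr1, Pgr and Ltf were marked in WT replicate 2 and in Prmt1-dKO replicate 2 and in neither first replicate. Klk1 had 0 peaks in 33 lists and C3 had 3. Outside H3K4me3 the highest peak of a member in a list had a fold enrichment of 2.38 to 4.99, a range that overlaps the 2.96 to 7.84 of H3K4me3, and a −log10 q of 0 to 3.47 against 3.19 to 25.8. No difference between genotypes was read from these peaks.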

How the data were processed

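The authors aligned trimmed reads (fastp 0.23.2) with STAR to mm10 and estimated counts per gene with RSEM, and they deposited expected counts, TPM and FPKM per library (the FPKM values were not used here). For CUT&Tag they called peaks per sample with MACS2 2.1.0, and the deposited lists hold fold enrichment as a ratio to background and −log10 p and q. Expected counts were rounded, filtered (edgeR filterByExpr, minimum count 10, total 15), scaled by TMM and tested with edgeR 4.0.16 (quasi-likelihood) over all genes with Benjamini-Hochberg adjustment, separately in each assay, on R 4.3.3. DESeq2 1.42.0, other size factors, no filter, a replicate block and each library left out were alternatives. On simulated bulk counts the test recovered 91 of 100 genes changed 4-fold and 38 of 100 changed 2-fold; for Smart-seq2 it recovered 25 and 0. Of 55401 identifiers 55141 matched GENCODE vM21. Named genes were the members, Prmt1, from each list at most 4 called genes with the largest change, the 5 nearest profiles, and family copies with 10 counts or more; any other gene was named after its values were seen. The members and lists were chosen with earlier results of these data known, and 1 listed gene is not reported here. Peak ends were checked against GRCm38 chromosome lengths (0 of 935217 lay past an end).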

Additional observations from a re-analysis of the deposited data

Results flagged for a closer look

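Esr1 was lower in all 3 Prmt1-dKO libraries of whole testis (log2 fold change -0.32) and higher in both Prmt1-dKO libraries of sorted spermatogonia (7.71). Hsd17b1 showed the same opposition, with a log2 fold change of -1.04 in whole testis, while in spermatogonia it had 0 counts in WT and 77 and 115 in Prmt1-dKO, at least 80.3-fold higher against a floor of 3 counts over the WT pair. For both genes every library of one assay moved one way and every library of the other the opposite way. Among all tested genes, Prmt1-dKO libraries lay wholly below WT for 19.9% in whole testis and wholly above for 36.3% in spermatogonia. For Esr1 edgeR called neither change (adjusted p 0.141 and 0.0774), and DESeq2 called the one in spermatogonia (adjusted p 8.9e-09). The difference between the assays was not tested.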

How the results depend on the processing

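In bulk RNA-seq Pgr was called higher under every alternative run, with log2 fold changes from 1.73 to 1.86, and C3 under all except the omission of WT replicate 1 or WT replicate 2. Leaving out 1 library at a time, the number of members called higher (the 3 picked for their rise left aside) ran from 1 to 2, that of other estrogen genes called lower from 0 to 3 (0 without Prmt1-dKO replicate 2, which ended the calls of Mybl1 and Hsd17b1, and 1 without WT replicate 1, which ended that of Hsd17b1), and Esr2 ran from -0.40 to 0.04, its direction turning without Prmt1-dKO replicate 2. Sprr2a2, at 8.36 with all libraries, ran from 7.00 (Prmt1-dKO replicate 3 left out) to 8.87 (Prmt1-dKO replicate 2 left out), and Klk1, at 6.47, from 5.06 (Prmt1-dKO replicate 2 left out) to 7.63 (WT replicate 2 left out).

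In Smart-seq2 DESeq2 called 2 members higher and 6 other estrogen genes higher and 1 lower, against 0, 0 and 0 with edgeR. Leaving out 1 library, edgeR called 0 to 3 members higher, and 0 to 17 other estrogen genes higher and 0 to 5 lower; the calls came without WT replicate 1 (3 members, 17 and 5 other genes) or without WT replicate 2 (2 members, 14 and 1). Of all genes, 29.5% were then called higher and 12% lower in the first case and 22.5% and 11.2% in the second, and the lone WT library is then assumed to vary as the Prmt1-dKO pair does. C3 ran from -0.37 to 8.36 over these omissions. The cause was not tested.

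Same-numbered libraries did not deviate together over all genes (correlations of deviations from -0.274 to 0.0966 in bulk, 0.0151 in Smart-seq2). Whether the numbers pair libraries in another way is not stated in the labels. With the replicate block 2 members were called higher in bulk and 0 in Smart-seq2.

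Within 1000 bp of a start, or with peaks of q at most 0.01, members with H3K27ac in both P14 lists went from 1 to 0. Those with H4R3me2a in all P14 lists went from 3 to 1 and 0, and those with H4R3me2s in both P7 WT lists from 1 to 0 at the stricter q. At that q the share of all genes marked in a list fell as well, to 17.1% to 24.4% for P14 H4R3me2a (44.9% to 51.1% before), 4.0% to 7.8% for P7 WT H4R3me2s (33.1% to 33.7%) and 45.1% to 46.4% for P14 H3K27ac (55.3% to 56.2%). For H3R2me2a only Esr1, Pgr and Ltf stayed in both P14 lists within 1000 bp, and only Adm at the stricter q. For H3R8me2a only Greb1 stayed in both P14 lists within 1000 bp, and no member at the stricter q. For H4R3me1 no member stayed in both under either setting. At the stricter q the P14 shares of all genes were 36.3% to 41.2%, 16.6% to 24.0% and 17.1% to 19.6% for these marks. With 2 libraries a group in Smart-seq2 and a few counts for Ltf, Klk1 and Sprr2a2 in WT, smaller differences were not detectable.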
